A study of Mus musculus with 68 samples.

Results

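Serotonin receptors are described here through 10 of their genes: Htr1a, Htr1b, Htr1d, Htr1f, Htr5a, Htr2a, Htr2c, Htr4, Htr7 and Htr3a. They were found by symbol among the 18088 genes of the deposited table and not by a threshold on measured values, although earlier results of these data were known. All 10 passed the filter on low values, among 17922 genes tested. The 68 libraries are prefrontal cortex RNA of C57BL/6J mice at postnatal day 25. Libraries labelled HT come from mice heterozygous for a mutation of Adnp, which encodes a chromatin-binding protein, and libraries labelled WT from mice without it. The pups received vehicle, fluoxetine or lithium through the milk of their mother from day 3 to day 24. Under vehicle there were 16 HT and 15 WT libraries, under fluoxetine 10 of each genotype, and under lithium 9 HT and 8 WT, with both sexes in every group. The labels describe neither the mutant allele, the drug dose nor the litters.

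Serotonin reaches the prefrontal cortex along fibres from the raphe nuclei, so the cortex holds the receptors and not the cell bodies that make the transmitter. Fluoxetine blocks the serotonin transporter, which prolongs the action of released serotonin, while lithium inhibits glycogen synthase kinase and inositol monophosphatases. Most serotonin receptors signal through G proteins: the products of Htr1a, Htr1b, Htr1d, Htr1f and Htr5a couple to Gi/o and lower cAMP, those of Htr2a and Htr2c couple to Gq/11 and phospholipase C, and those of Htr4 and Htr7 couple to Gs and raise cAMP. Htr3a encodes the subunit of a cation channel, found in cortex in a class of inhibitory interneurons.

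Depth ran from 22.4M to 37.5M reads per library (M, mega), as recovered from the table, and a value below is a read count divided by the size factor of its library, called a normalized read count. Slc17a7, a transporter of cortical glutamatergic neurons, stood at 33346 to 61822 in all 68 libraries. Markers of bordering tissue varied far more: the summed level of 14 striatal genes ran from 5399 to 25235. The libraries fell into 3 sets by the levels of 361 pseudogenes, a division that the labels do not name. Every fluoxetine library (20) was in set 1, beside 8 of HT vehicle. Every lithium library (17) was in set 2, beside 6 of HT vehicle and 5 of WT vehicle. The other 10 of WT vehicle and the last 2 of HT vehicle made up set 3. Values within 1 set therefore stand beside the pooled ones, and fluoxetine in WT has no such value, because no WT vehicle library is in set 1: there, drug and set cannot be told apart. Adnp had the higher median in HT in each drug arm, a level that does not check the genotype labels because alleles are not told apart.

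Htr2a had the most RNA per length. Its median over 68 libraries was 245 normalized counts per kb of exon, followed by Htr1a at 137, Htr2c at 128, Htr5a at 128 and Htr3a at 106. Htr1b stood at 62.8, Htr7 at 53.2, Htr1f at 29.2, Htr1d at 16.0 and Htr4 at 4.26 on the same scale. The highest of the 10 medians was 57.7 times the lowest. Htr2a exceeded Htr1a in 68 of 68 libraries, Htr3a exceeded Htr1b in 68, and Htr1d exceeded Htr4 in 68. The neighbours in the middle of the order did not separate: Htr1a exceeded Htr2c in 43 of 68 libraries, and Htr2c exceeded Htr5a in 32. Htr5a exceeded Htr3a in 57 libraries and Htr1b exceeded Htr7 in 51. Of the other serotonin receptor genes looked for, Htr6 had a median of 48.2 per kb and Htr5b of 16.8, and Htr2b and Htr3b were not analysed here. Tph2, the enzyme of serotonin synthesis in raphe neurons, stood at 9.21 to 84.2 normalized counts.

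The genes also differed in how steady they were. Htr5a ranged over 1.70-fold from the lowest to the highest library, Htr2a over 1.74-fold, Htr7 over 1.94-fold, Htr1b over 1.97-fold and both Htr1a and Htr3a over 2.0-fold. Htr2c ranged over 2.69-fold, Htr1f over 3.99-fold, Htr1d over 7.77-fold and Htr4 over 9.35-fold. Counting error is part of the spread in the low genes: Htr4 had 7 to 58 recovered reads per library, and its spread within groups was a CV of 49.1% where counting alone gives 20.5%. For Htr1d the corresponding CVs were 40.2% and 13%, and for Htr5a 9.05% and 3.71%.

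**Figure D1:**
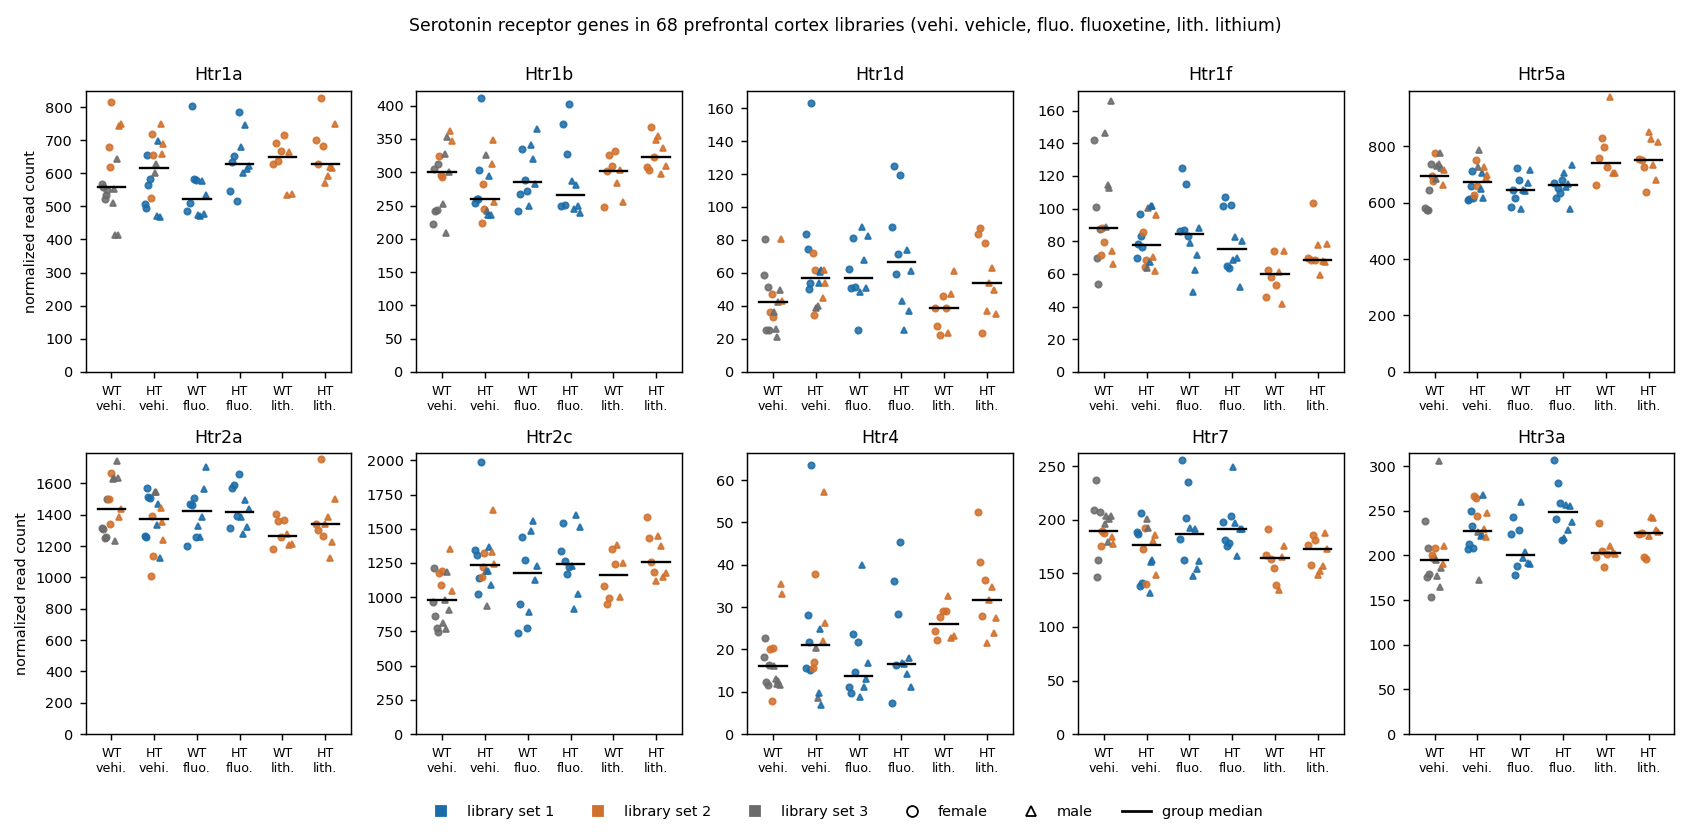
Normalized read counts (linear vertical axes from 0) of the 10 genes in 68 libraries by genotype and drug arm, with colour for the library set, circles for females, triangles for males and a bar at the group median. The groups overlap in every panel, and Htr4 and Htr1d scatter most, over 9.35-fold and 7.77-fold.

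The scatter of Htr4, Htr1d and Htr2c followed, among others, genes of tissue that borders the prefrontal cortex. After the mean of each group within each library set was removed, the 3 protein-coding genes most like Htr4 over 68 libraries were Drd1 (Pearson r = 0.78), Gpr83 (0.77) and Pde10a (0.73). Drd1, a dopamine receptor, and Pde10a, a phosphodiesterase, are both abundant in striatal medium spiny neurons. On the same measure the striatal list had r = 0.66 with Htr4, 0.67 with Htr1d, 0.57 with Htr2c and 0.45 with Htr1b. Htr1d was as close to the claustrum list (0.69), and its nearest genes were Klhl13 (0.81), Filip1 (0.79) and Nts, which encodes neurotensin (0.75). Other lists also had positive r. With Htr1d it was 0.53 for interneurons outside the Htr3a type and 0.47 for deep layer neurons. The oligodendrocyte lineage list had 0.44 with Htr4 and 0.39 with both Htr1d and Htr2c. These are descriptions over libraries that share their dissection and size factors, and they carry no p. In bulk tissue, fewer cells of a type and less RNA per cell cannot be told apart.

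The other receptors kept different company. Htr2a was closest to Ankrd34b, Ano3 and Oxr1 (0.86 each), and Htr2c to Lmo3 (0.88), Ndst4 (0.78) and Lmo7 (0.78). Htr1a was closest to Rap2b (0.80), Flrt2 (0.79) and AI593442 (0.76), and Htr1b to Kcnab1, a potassium channel subunit (0.81), Socs5 (0.78) and Ppp2r2a (0.75). Htr5a followed Kpna6 (0.76), Tbc1d24 (0.73) and Wdr7 (0.72), and Htr1f followed Dcaf1 (0.68), Ahcyl2 (0.67) and Mga (0.66). Htr3a was nearest to Lzic (0.68), Sema4c (0.68) and Rab20 (0.66), and its r was 0.55 with the list of Htr3a-type interneurons and 0.46 with that of the olfactory bulb. Htr7 had the weakest neighbours, led by Met, a receptor tyrosine kinase, at 0.56, with Poll at 0.48 and Gne at 0.44. Among the members themselves, Htr1a and Htr2a had r = 0.65, Htr1d and Htr2c 0.60, and Htr1b and Htr3a -0.62.

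**Figure D2:**
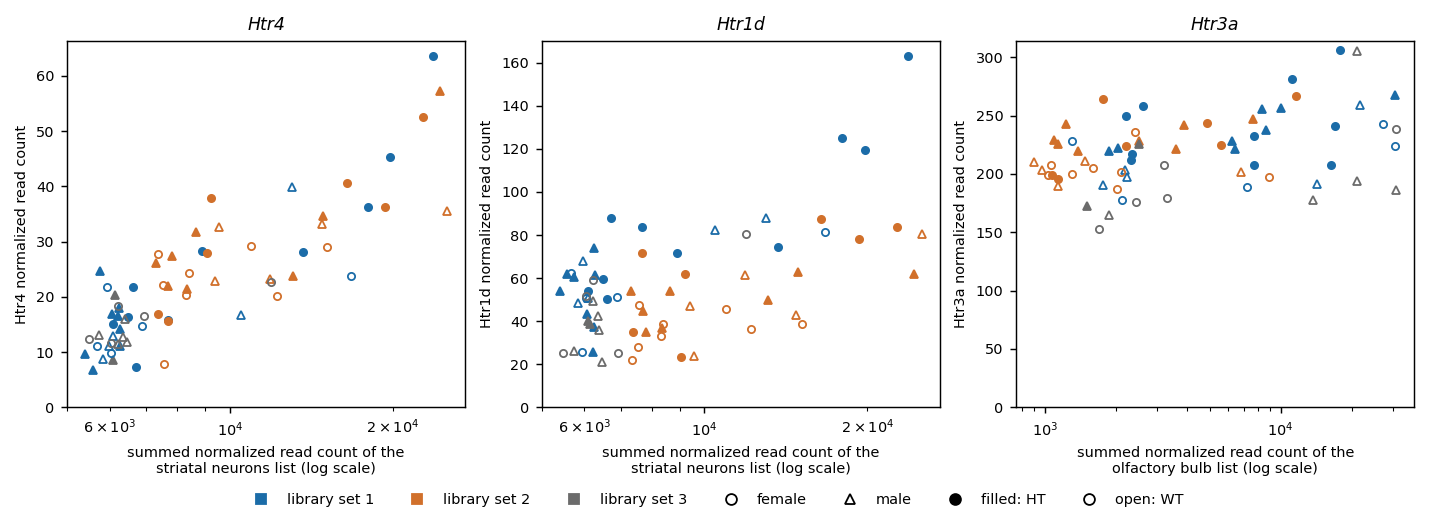
Normalized read counts of Htr4, Htr1d and Htr3a (vertical axes) against the summed normalized read count of the striatal or olfactory bulb list (horizontal axes, log scale) in 68 libraries, with colour for set, shape for sex and filled symbols for HT. The highest Htr4 value, 63.5, and the highest Htr1d value, 163, come from 1 library whose striatal sum of 23764 ranks 3 of 68.

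Because Htr1d and Htr2c moved together over libraries, the 150 bases before the first start of each are shown, from RefSeq on GRCm38.p6, read 5′ to 3′ on the plus strand (chr4:136423374-136423523 and chrX:146962363-146962512). Capitals mark a GC box (GGGCGG on either strand), which 32.7% of 32851 RefSeq promoter windows hold.
Htr1d: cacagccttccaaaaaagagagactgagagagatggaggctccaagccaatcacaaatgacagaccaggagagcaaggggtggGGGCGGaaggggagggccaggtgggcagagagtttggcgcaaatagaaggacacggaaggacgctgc
Htr2c: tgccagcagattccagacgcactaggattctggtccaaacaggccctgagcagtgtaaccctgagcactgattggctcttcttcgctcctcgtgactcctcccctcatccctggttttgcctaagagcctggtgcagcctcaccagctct
In the longer window before the start, 250 bases in all, neither gene held TATAAA (12.4% of windows), the cAMP response element TGACGTCA (1.55%) or the E-box CACGTG (6.02%), and Htr2c held no GC box. GC content was 51.6% for Htr1d and 55.6% for Htr2c, where the median window has 52.4%. A second Htr1d start had a window of 72.4%, which also held a GC box. Of the 10 genes, windows were read for 8, which does not show that the other genes lack an entry.

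Fluoxetine was compared with vehicle first, to ask whether 3 weeks of the serotonin reuptake inhibitor moved the RNA of the receptors. In HT mice 0 of 10 genes passed by limma at a Benjamini-Hochberg adjusted p under 0.05, where 1.22% of all tested genes passed. At an unadjusted p under 0.05 there was 1 gene, Htr7, and edgeR on the recovered reads also called 0. The median log2 difference of the 10 was 0.07, against 0.00 over all genes, with 7 positive and 3 negative. The 95% intervals of the 10 together ran from -0.65 to 0.54, and the width came from Htr4 and Htr1d.

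Among the Gi/o-coupled receptors, Htr1a, the somatodendritic autoreceptor of raphe neurons that cortical pyramidal cells also carry, stood at 516, 627 and 785 normalized counts (lowest, median, highest; n = 10) in HT fluoxetine and at 469, 615 and 748 (n = 16) in HT vehicle. The groups overlapped over most of their range. The log2 difference was 0.09 (SE 0.09, adjusted p = 0.73), and within set 1 it was 0.21 (adjusted p = 0.34). In the set 1 comparison 0 of 10 genes passed (background 0.167%), with 2 at an unadjusted p under 0.05. Htr1b, the terminal autoreceptor, differed by 0.05 (95% interval -0.13 to 0.22). Htr5a had the tightest interval, -0.14 to 0.06, around a difference of -0.04. Htr1f differed by -0.03 and Htr1d by 0.11.

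The Gq-coupled Htr2a, the receptor of serotonergic hallucinogens, had 1279, 1414 and 1658 normalized counts in HT fluoxetine and 1009, 1375 and 1574 in HT vehicle, a log2 difference of 0.10 (SE 0.06, adjusted p = 0.55). For Htr2c the difference was 0.00 with an interval of -0.22 to 0.22. Htr7, a Gs-coupled receptor, came nearest to passing. It stood at 167, 192 and 249.4 normalized counts in HT fluoxetine and at 132, 177 and 206 in HT vehicle, and 8 of 10 fluoxetine libraries lay above the vehicle median. The log2 difference was 0.19 (SE 0.08, adjusted p = 0.23), and within set 1 it was 0.26 (adjusted p = 0.22). Htr4 differed by -0.14 with an interval of -0.65 to 0.36. For the channel subunit Htr3a the difference was 0.12 (SE 0.07, adjusted p = 0.50), with 8 of 10 fluoxetine libraries above the vehicle median.

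In WT mice fluoxetine also left 0 of 10 genes past the threshold, where 5.43% of all tested genes passed. At an unadjusted p under 0.05 there was 1 gene, Htr1d, and edgeR called 0. Htr1d stood at 25.5, 56.8 and 87.9 normalized counts in WT fluoxetine (n = 10) and at 21.0, 42.2 and 80.5 in WT vehicle (n = 15), with 9 of 10 fluoxetine libraries above the vehicle median. The log2 difference was 0.50 (SE 0.22, adjusted p = 0.15). With scores of the striatal, olfactory bulb, choroid plexus and claustrum lists as covariates it was 0.55 and passed (adjusted p = 0.016). That fit called 2182 of all tested genes, against 974 in the main fit. In this comparison set and drug cannot be told apart.

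Taken by sex, 0 of 10 genes passed in HT females (background 0.117%), HT males (0%), WT females (0.0335%) or WT males (3.73%). At an unadjusted p under 0.05 these comparisons held 1, 1, 0 and 2 members, and edgeR called 0 members in each. The pair in WT males were Htr1d, with a log2 difference of 0.72 (SE 0.31, adjusted p = 0.15), and Htr1f, with -0.60 or 0.66-fold (SE 0.19, adjusted p = 0.053). In WT females Htr1f differed by 0.23 (adjusted p = 0.68). In WT males Htr1f passed without vehicle replicate 6 (adjusted p = 0.015) or replicate 7 (0.014), both of set 2. With the marker scores as covariates 3 members passed in WT males: Htr1d (0.88, adjusted p = 0.011), Htr1f (-0.51, 0.044) and Htr2c (0.39, 0.040). That fit called 1997 of the 17922 tested genes, against 668 in the main fit. No WT vehicle library is in set 1, so drug and set cannot be told apart in either sex of WT. For the difference of the fluoxetine effect between HT and WT, 0 of 10 genes passed (0% of all genes passed, 1 member at an unadjusted p under 0.05, 0 by edgeR). Htr7 came closest, with a difference of effects of 0.22 (SE 0.11, adjusted p = 0.41). Drug and set cannot be told apart in the WT part of this difference, which has no value within 1 set. For the difference between sexes, in HT and in WT, 0 of 10 genes passed in each (background 0%, unadjusted 0 and 2 members, edgeR 0).

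**Figure D3:**
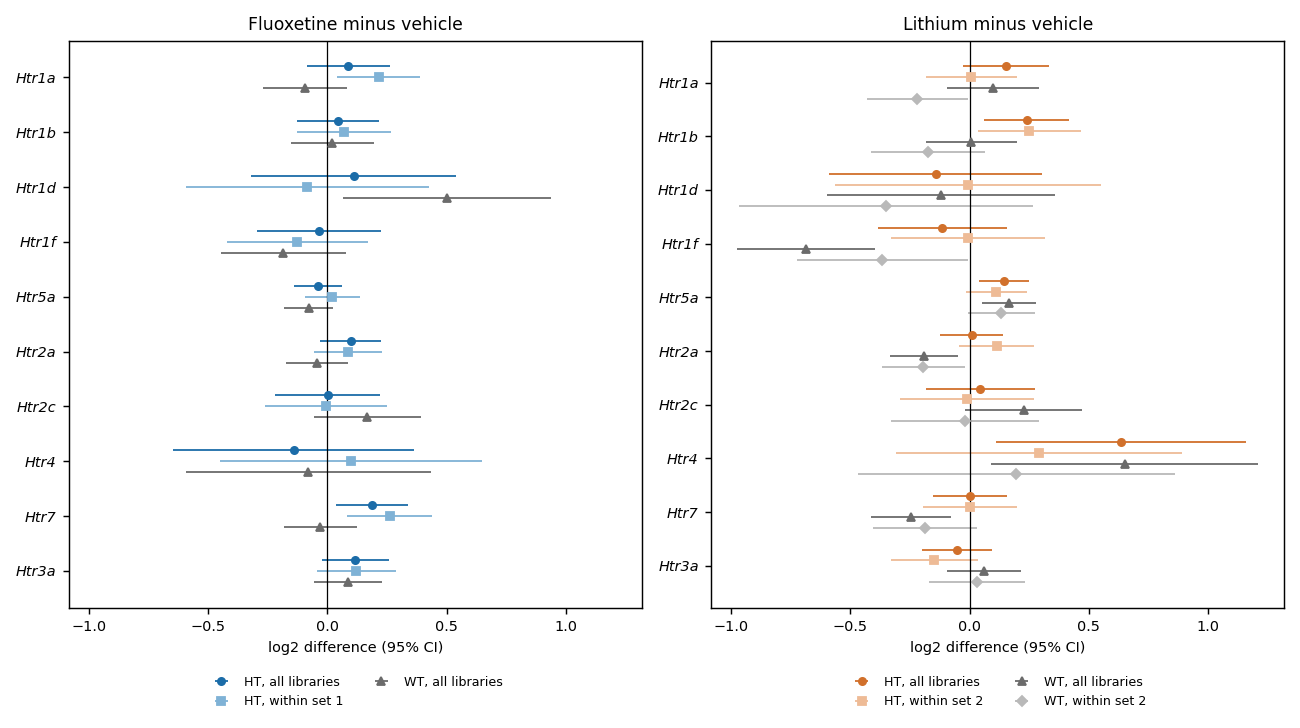
Log2 differences from vehicle with 95% intervals for the 10 genes (rows), for fluoxetine on the left and lithium on the right, in HT and WT, over all libraries and within 1 library set. Under fluoxetine every gene missed the threshold, and under lithium Htr1f in WT lies farthest from 0 at -0.69.

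The rest of the serotonin pathway was examined through lists of genes. Under fluoxetine in HT, by limma 0 of 13 genes of serotonin synthesis, transport and breakdown, 0 of 34 genes of G proteins and effectors, 0 of 19 genes of receptor partners and RNA editing, and 0 of 2 other receptor genes passed. In WT, 4 of the 68 genes of these lists passed, where 5.43% of all genes did, so the count was near the background. They were Pts, an enzyme of cofactor synthesis (-0.19, adjusted p = 0.044), Gng2, a G protein subunit (-0.16, 0.035), Adarb1, an editor of RNA (0.17, 0.014) and Arrb1, a beta-arrestin (0.16, 0.017). Htr2c transcripts are a known substrate of RNA editing.

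Lithium was compared with vehicle next. In WT mice 4 of 10 genes passed, 1 higher and 3 lower, and 36.1% of all tested genes passed in the same comparison (18.6% higher and 17.5% lower), so the share of receptors was close to the background. Htr1f, a Gi/o-coupled receptor, stood at 41.6, 59.8 and 73.9 normalized counts in WT lithium (n = 8) and at 53.6, 88.1 and 166 in WT vehicle (n = 15). No lithium library reached the vehicle median, and the ranges overlapped. Htr1f fell by 0.69 on the log2 scale, to 0.622-fold (SE 0.14, adjusted p = 0.000243).

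The library sets cross this contrast. Htr1f in WT vehicle stood at 53.6, 107 and 166 in set 3 (n = 10) and at 66.2, 74.1 and 88.1 in set 2 (n = 5), the set that holds the lithium libraries. Within set 2 the lithium difference was -0.37 (SE 0.18, adjusted p = 0.40). The other 3 genes moved less. Htr7 had 135, 164 and 192 normalized counts under lithium and 147, 190 and 237 under vehicle, and it fell by 0.24 (SE 0.08, adjusted p = 0.019). Htr2a, with 1180, 1267 and 1402 against 1234, 1438 and 1740, fell by 0.19 (SE 0.07, adjusted p = 0.030), and 0 of 8 lithium libraries lay above the vehicle median. Htr2a did not pass without WT lithium female replicate 1 (adjusted p = 0.062), male replicate 2 (0.073) or male replicate 3 (0.059).

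Htr5a had 663, 742 and 975.3 normalized counts under lithium and 573, 695 and 777 under vehicle, and it rose by 0.17 (SE 0.06, adjusted p = 0.018). Without WT lithium male replicate 1, which held the value of 975.3, the difference of Htr5a was 0.09 (adjusted p = 0.25), and that of Htr7 was -0.19 (0.11). Within set 2, 0 of 10 genes passed, where 0.664% of all genes passed (119). At an unadjusted p under 0.05 there were 3 members, Htr1f, Htr2a (-0.19) and Htr1a (-0.22), and Htr1a had differed by 0.10 over all libraries. Htr7 (-0.19) and Htr5a (0.13) were not among them. The set 2 comparison rests on 5 WT vehicle libraries.

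**Figure D4:**
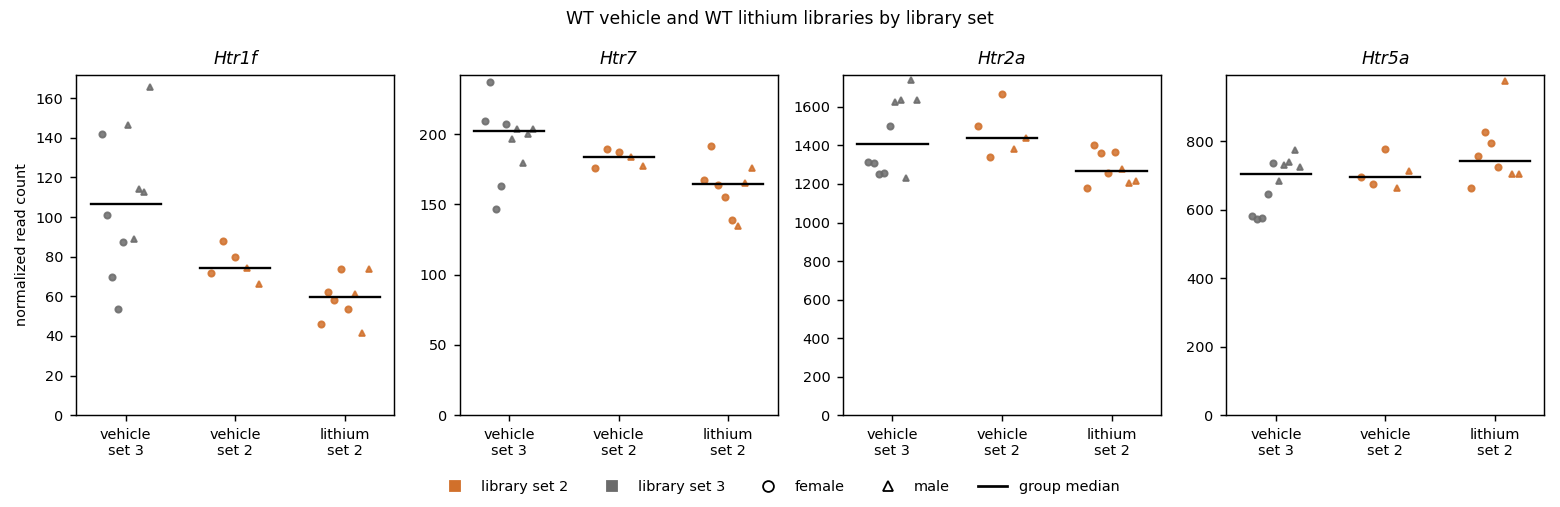
Normalized read counts (linear axes from 0) of the 4 genes that passed in WT lithium against WT vehicle, with WT vehicle split by library set, circles for females, triangles for males and bars at medians. For Htr1f the medians are 107 in set 3 vehicle, 74.1 in set 2 vehicle and 59.8 under lithium.

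In HT mice lithium left 0 of 10 genes past the threshold (background 1.52%), with 3 at an unadjusted p under 0.05 and 0 by edgeR. Htr1b stood at 297, 324 and 369 normalized counts under lithium (n = 9) and at 223, 259 and 412 under vehicle (n = 16). All 9 lithium libraries lay above the vehicle median, and the log2 difference was 0.24 (SE 0.09, adjusted p = 0.15). Within set 2 it was 0.25 (adjusted p = 0.36), and 0 of 10 genes passed there (background 0.162%). In set 2 an unadjusted p under 0.05 was reached by 1 member and by 1922 of all genes. Htr5a differed by 0.14 (adjusted p = 0.14) and Htr4 by 0.64 (SE 0.26, adjusted p = 0.19).

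Htr4 was also 0.65 higher in WT lithium without passing (adjusted p = 0.062). It passed with only the groups compared (adjusted p = 0.033) and without WT vehicle male replicate 6 (0.030) or 7 (0.034), while within set 2 its difference was 0.20 in WT (adjusted p = 0.89) and 0.29 in HT (0.79). It stood at 21.5, 31.8 and 52.5 normalized counts in HT lithium and 22.1, 26.1 and 32.7 in WT lithium, against 6.79, 21.0 and 63.5 in HT vehicle and 7.90, 16.0 and 35.5 in WT vehicle. In both genotypes every lithium library lay above the vehicle median. The summed striatal list had medians of 13098 in HT lithium and 9479 in WT lithium, against 7341 in HT vehicle and 6465 in WT vehicle. With the marker scores as covariates the Htr4 difference was 0.16 in HT (adjusted p = 0.78) and 0.45 in WT (0.061). For the difference of the lithium effect between genotypes, 0 of 10 genes passed (background 2.8%, 3 members at an unadjusted p under 0.05, 0 by edgeR). Htr1f had a difference of effects of 0.57 (SE 0.20, adjusted p = 0.086), which passed without WT vehicle male replicate 6 (0.041) or 7 (0.040) and with the marker scores (0.043). Within set 2 it was 0.36 (adjusted p = 0.71), and with sets and marker scores together 0.31 (0.88).

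The pathway lists were read in the same way. In WT over all libraries, of 13 genes of synthesis, transport and breakdown 4 rose and 1 fell, where 36.1% of all genes passed. Aldh2, which oxidizes the aldehyde made from serotonin, rose by 0.30, the cofactor enzymes Spr by 0.39 and Qdpr by 0.32, and the transporter Slc22a3 fell by 0.40. Of 34 G protein and effector genes 6 rose and 7 fell. Among them the adenylyl cyclases Adcy9 (0.51) and Adcy3 (0.37) were higher, and the potassium channel Kcnj3 (-0.25) and the kinase Prkca (-0.27) were lower. Of 19 partners and regulators 5 rose and 4 fell, with the receptor kinases Grk5 at -0.29 and Grk2 at 0.24, Cav1 at -0.36 and Arrb1 at 0.19. These shares, 5 of 13, 13 of 34 and 9 of 19, are to be read against that background. Within set 2 none of these lists had a gene past the threshold. In HT, where 1.52% of all genes passed, S100a10, a partner of Htr1b, fell by 0.28 (adjusted p = 0.049). No other gene of the lists passed, so the count was near the background.

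The genotype comparison, HT against WT, asked what the Adnp mutation was accompanied by in each drug arm, and the 3 arms share no library. Under vehicle 2 of 10 genes passed, both higher in HT, where 15% of all genes passed (7.74% higher and 7.21% lower). Htr2c had 937, 1232 and 1988 normalized counts in HT (n = 16) and 747, 979 and 1350 in WT (n = 15). The ranges overlapped, and 15 of 16 HT libraries lay above the WT median. The log2 difference of Htr2c was 0.35 (SE 0.10, adjusted p = 0.012), or 1.28-fold. It passed with each library left out in turn (adjusted p 0.0036 to 0.028).

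Htr3a had 173, 228 and 268 normalized counts in HT vehicle and 153, 194 and 306 in WT vehicle. The highest value belonged to WT, and 15 of 16 HT libraries lay above the WT median. Htr3a was 1.16-fold higher (log2 0.22, SE 0.06, adjusted p = 0.014). Fitted on the vehicle libraries alone, it did not pass (adjusted p = 0.070). Within set 2, with 6 HT and 5 WT libraries, 0 of 10 genes passed (background 0.536%), with 3 at an unadjusted p under 0.05. In set 2 Htr3a stood at 220.1, 246 and 267 in HT and at 189.9, 199.9 and 210.2 in WT. How many other genes also keep such ranges apart there was not counted. The Htr3a difference was 0.28 (SE 0.11, adjusted p = 0.44), and that of Htr2c was 0.16 (SE 0.16, adjusted p = 0.999).

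By set, Htr2c in WT vehicle stood at 747, 886 and 1214 in set 3 and at 1045, 1177 and 1350 in set 2. In HT vehicle its medians were 1250 in set 1 and 1284 in set 2, and male replicates 1 and 2, the only HT libraries of set 3, had 1192 and 937. Among the genes that did not pass under vehicle, Htr1d was 0.53 higher in HT (SE 0.19, adjusted p = 0.052), Htr7 differed by -0.17 (adjusted p = 0.080) and Htr1f by -0.24 (adjusted p = 0.15). With the marker scores as covariates 5 genes passed: Htr3a (0.24), Htr2c (0.33), Htr1d (0.45), Htr1f (-0.27) and Htr7 (-0.18). The same fit called 4443 of all tested genes, against 2680 in the main fit. Marker scores and sets together left 0 receptor genes past the threshold, and 106 of all tested genes passed.

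Under fluoxetine 0 of 10 genes passed between the genotypes (background 1.98%), with 2 at an unadjusted p under 0.05 and 0 by edgeR. Htr3a had 217, 248 and 307 normalized counts in HT and 178, 201 and 259 in WT (n = 10 each), and 10 of 10 HT libraries lay above the WT median. The log2 difference was 0.25 (SE 0.08, adjusted p = 0.081), in libraries that were all in set 1. In the fit by set 0 of 10 passed as well (background 2.85%), with Htr3a at an adjusted p of 0.058. It passed without HT fluoxetine female replicate 5 (adjusted p = 0.047), without WT fluoxetine male replicate 1 (0.033) and with the marker scores (0.034). Htr1a, the other gene at an unadjusted p under 0.05, had a difference of 0.23 (SE 0.10, adjusted p = 0.29), with 9 of 10 HT libraries above the WT median.

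Under lithium 0 of 10 genes passed (background 2.51%), with 1 at an unadjusted p under 0.05 and 0 by edgeR. Htr3a had 195, 225 and 243 normalized counts in HT (n = 9) and 187, 203 and 236 in WT (n = 8), a difference of 0.11 (SE 0.09, adjusted p = 0.63). Of 9 HT libraries, 7 lay above the WT median. Htr1f was the gene at an unadjusted p under 0.05, at 0.33 (SE 0.16, adjusted p = 0.29). In the fit by set 0 of 10 passed (background 4.49%), with 1 at an unadjusted p under 0.05 (3390 of all genes).

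**Figure D5:**
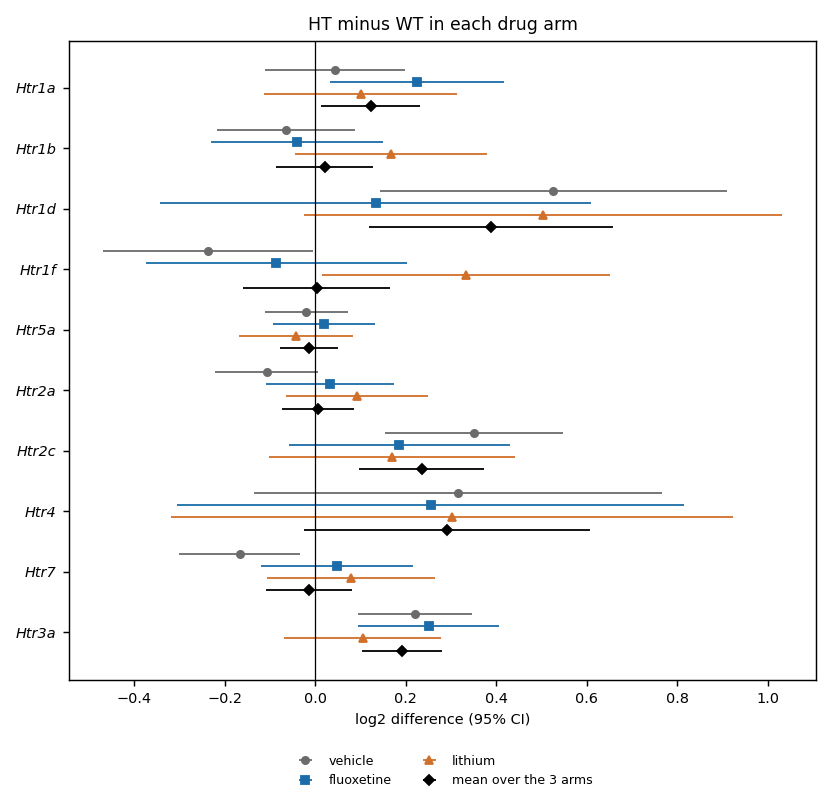
Log2 differences of HT minus WT with 95% intervals for the 10 genes (rows) under vehicle, fluoxetine and lithium and as the mean over the 3 arms. Htr3a is above 0 in each arm, at 0.22, 0.25 and 0.11, and its mean is 0.19.

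Because Htr3a was higher in each arm, the mean genotype difference over the 3 arms was added after those values had been seen. Htr3a was 1.14-fold higher in HT on that measure (log2 0.19, SE 0.04, adjusted p = 0.0018), as was Htr2c at 1.18-fold (log2 0.24, SE 0.07, adjusted p = 0.021), and 7.43% of all genes passed (4.31% higher and 3.12% lower). Within sets 1 of 10 passed (background 4.65%): Htr3a was 0.21 higher (adjusted p = 0.0051), and Htr2c differed by 0.17 (adjusted p = 0.28). Over all alternatives and libraries left out, the adjusted p of Htr3a ran from 9.5e-05 to 0.0051. With the marker scores and sets together it was 0.20 higher (adjusted p = 0.0024). Htr2c missed the threshold with the marker scores (0.16, adjusted p = 0.086) and without WT lithium male replicate 2 (0.21, 0.056). The choice of this measure after the single arms had been seen makes its p a description of these libraries.

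Markers of Htr3a-type interneurons and of the olfactory bulb, which also expresses Htr3a, were read beside it. Of 13 interneuron genes, 1 was higher and 1 lower under vehicle, with a median log2 difference of -0.09 and a background of 15%, and 1 was higher and 1 lower over the 3 arms, with a median of -0.02 and a background of 7.43%. The summed level of the list ran from 28216 to 39528 in HT vehicle (median 31818) and from 29263 to 42029 in WT vehicle (median 32862). Vip, an interneuron peptide of this list, stood at 936 to 1478 in the 68 libraries. The olfactory bulb list ranged from 1099 to 30572 in HT vehicle and from 903 to 30954 in WT vehicle, and 0 of its 10 genes passed. The part of either list in the Htr3a difference was tested only through the marker scores above, which held the olfactory bulb list and not the interneuron list.

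In the pathway lists 4 of 13 genes of synthesis, transport and breakdown passed under vehicle. Aldh2 (0.26) and Spr (0.33) were higher in HT, and Slc22a3 (-0.32) and the monoamine oxidase Maoa (-0.13) were lower. Adcy3 (0.22) and the G protein Gnai2 (0.09) were higher, the only passing genes of 34 in that list, where 15% of all genes passed. Of 19 partners, Cav1 (-0.37) and Grk5 (-0.18) were lower and Grk2 (0.19) and Arrb1 (0.12) higher. Within set 2 none of these lists had a gene past the threshold under vehicle (background 0.536%). The WT vehicle libraries here also served the lithium comparison in WT. Under fluoxetine (background 1.98%) Adarb1 was lower in HT (-0.20, adjusted p = 0.0049; within set 1, 0.0013), and within set 1 Grk5 was lower too (-0.16, adjusted p = 0.017; background 2.85%). Under lithium 0 genes of the pathway lists passed over all libraries (background 2.51%), and in the fit by set (background 4.49%) Qdpr (-0.22) and Maob (-0.17) were lower in HT. Htr5b and Htr6 passed in no comparison. Between males and females 0 of 10 members passed (background 0.1%), with 1, Htr5a, at an unadjusted p under 0.05 (0.07, SE 0.03, adjusted p = 0.77) and 0 by edgeR.

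The genes that passed a test lie apart in the genome on GRCm38. Htr3a spans chromosome 9 from 48899213 to 48911099 on the minus strand and Htr2c chromosome X from 146962513 to 147197277 on the plus strand. Htr1f spans chromosome 16 from 64924729 to 65105854 and Htr7 chromosome 19 from 35958734 to 36057507, both on the minus strand. Htr2a lies on chromosome 14 from 74640840 to 74709494 and Htr5a on chromosome 5 from 27842149 to 27855088, both on the plus strand. An antisense gene overlaps Htr1b (D430036J16Rik, also in the table) and another overlaps Htr3a (Gm32335, not analysed here). How strand entered the counting is not given in the sources used here, so reads of these pairs may be mixed.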

How the data were processed

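RNA of the prefrontal cortex was read in 68 stranded mRNA libraries, per the labels' protocols. The authors deposited 1 table of signal values, read counts divided by a size factor per library. Per the submitters' processing notes, the tools were Salmon 0.11.2, R 3.6.0 and DESeq2 1.19.11 and the build GRCm38, with no role given for each. The annotation release is not given in the sources used here. Whole reads were recovered from the steps of the values (100% whole within 0.01 in the lowest library, 22.4M to 37.5M reads), although in 8 libraries the step lay near 1.

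The planned test for counts gave way to limma 3.58.1 (R 4.3.3, trend and robust) on log2(value + 1), over 17922 genes with a mean of at least 5, in 1 fit of 12 groups. Fold changes are on that scale, which understates low genes. Benjamini-Hochberg adjustment ran over all tested genes, with 0.05 as the threshold. Adjusted p values are those of limma unless edgeR 4.0.16 (quasi-likelihood, on recovered reads) is named. Effects over both sexes average the female and male contrasts. The test was checked on simulated data.

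Library sets came from average linkage on 361 pseudogenes. Within-set values use group by set. Symbols came from GENCODE vM21 (18077 genes matched) and promoters from RefSeq. All 10 receptor genes were tested in each comparison, and not all of them are named in each. Up to 4 passing genes of the smallest p are named from each pathway list. The 3 genes of highest r are given for each member. Members, lists and sets were chosen with earlier results of these data known. Alternatives were pseudocounts of 0.5 and 5, no filter, TMM rescaling, edgeR, only the groups compared, within sets, a replicate block and each library left out. Marker scores as covariates (mean log2 value of 4 lists) and genotype over the 3 arms were added after seeing the data. Labels number replicates without naming litters, so p-values measure the spread between libraries. Replicate numbers did not pair libraries.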

Additional observations from a re-analysis of the deposited data

Results flagged for a closer look

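For 10 genes in groups of one genotype, drug and sex with 4 or more libraries, 110 combinations of gene and group were tested, and 12 held a library that stood apart from the rest of its group, where chance gives about 1 in 20. The values are normalized read counts, and what set these libraries apart was not tested.

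HT vehicle female replicate 5 stood apart in 4 genes. It had 163 for Htr1d (others 34.8 to 83.6), 1988 for Htr2c (1021 to 1347), 412 for Htr1b (223 to 303) and 63.5 for Htr4 (15.1 to 37.8). Its striatal sum was 23764, rank 3 of 68, and its claustrum sum was 10043. HT vehicle male replicate 7 had 57.3 for Htr4 (others 6.79 to 26.1), with a striatal sum of 24448, rank 2. WT fluoxetine male replicate 2 had 39.9 for Htr4 (others 8.67 to 16.8), with a striatal sum of 13010, the highest of its group.

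HT lithium female replicate 3 was low for Htr1d at 23.5 (others 78.0 to 87.3) and high for Htr1f at 104 (68.3 to 70.0) and Htr2a at 1755 (1267 to 1340). Its striatal sum of 9067 was the lowest of its group, whose other libraries stood at 16444 to 22728.

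Htr3a was high in WT vehicle male replicate 3 at 306 (others 165 to 210.2) and in WT fluoxetine male replicate 1 at 259 (others 191 to 204). Their olfactory bulb sums were 21089 and 21762. In the fluoxetine group that sum was the highest, with the others at 1771 to 14255. In the vehicle group it was not: replicate 5 had a sum of 30954 with Htr3a at 186, and replicate 1 a sum of 21129 with Htr3a at 194. HT lithium male replicate 5 had 748 for Htr1a (others 571 to 618).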

How the results depend on the processing

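Counts of receptor genes past the threshold (limma) were the same with either other pseudocount, without the filter and with edgeR. Within library sets 0 passed for lithium in WT and 0 for genotype under vehicle, and 1 (Htr3a) for genotype over the 3 arms. With only the groups compared 1 (Htr2c) passed for genotype under vehicle. TMM rescaling gave 3 there, with Htr1d added (adjusted p = 0.049). With marker scores 1 passed for fluoxetine in WT (2182 of all genes) and 3 for fluoxetine in WT males (1997). They gave 1 for the difference of lithium effects (1772) and 5 for genotype under vehicle (4443). For genotype under fluoxetine 1 passed (1026) and for genotype over the arms 1 (1532). Marker scores and sets together gave 2 for genotype under fluoxetine (Htr3a and Htr1a, against 1476 of all genes) and 0 for genotype under vehicle (106). They gave 0 for lithium in WT (119) and 1 for genotype over the arms (1063). The causes were not tested.

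With libraries left out in turn, the count ran from 2 to 5 for lithium in WT, 2 to 4 for genotype under vehicle, 0 to 1 for genotype under fluoxetine, 1 to 3 for genotype over the arms, 0 to 2 for fluoxetine in WT males and 0 to 1 for the difference of lithium effects. It was 0 throughout for fluoxetine in HT, fluoxetine in WT and lithium in HT. The 4 genes of genotype under vehicle came without HT vehicle male replicate 1 (Htr1d and Htr7 added).

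Same-numbered libraries did not deviate together (median r = -0.005 over 313 pairs, 0.004 over 1791 others). With a replicate block 4 genes passed for lithium in HT, 6 for lithium in WT, 1 for fluoxetine in WT males and 2 for genotype under vehicle. Over all genes the block called 3746 for lithium in HT and 8849 in WT, against 273 and 6478 in the main fit. Replicates 6 to 8 occur only under vehicle, and they are the vehicle libraries of set 2. The block therefore overlaps with the library sets, and its drug counts do not separate drug from set. No called value had the opposite sign to the main fit in any of these settings. Settings could differ from each other: Htr1a for lithium in WT passed with the block at 0.21 and was -0.22 within set 2 without passing. Depth limits Htr4 most, at 7 to 58 reads.

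Over all genes, fluoxetine in WT called 974, or 80 with only the groups compared, 4003 with the replicate block and 2182 with marker scores. Lithium in HT called 273, or 29 within sets, and genotype under vehicle 2680, or 96 within sets and 858 with only the groups compared.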
